A study of Mus musculus with 8 samples.

Results

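Translation initiation and elongation factors are the proteins that bring a ribosome to the start codon of an mRNA and then move it along the message. The genes described here are the protein-coding genes of the count tables whose GENCODE M21 symbol begins with *Eif1* to *Eif6* or with *Eef1* or *Eef2*. This name rule matched 79 genes, of which 10 pseudogenes, 1 long noncoding RNA and the Y-linked *Eif2s3y* were set aside, which left 67 members of 54838 genes in all. It is a rule of names, and it takes in the *Eif4ebp* repressors and the *Eif2ak* kinases as well as the factors themselves.

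The samples were mouse leukemic cells driven by iMLL-AF9, a doxycycline-inducible form of the MLL-AF9 fusion oncoprotein of acute myeloid leukemia. All carried that allele on an otherwise wild-type genotype and were labelled as stem cells of the leukemia from bone marrow. Of the 8 libraries, 4 came from cells given DMSO, the solvent, and 4 from cells given IOX5. IOX5 inhibits the prolyl hydroxylases (PHDs) that mark HIF-α for destruction, and the comparison asks how the leukemic transcriptome responds to that inhibition. The dose and the time of treatment of these samples are not given in the sources used here. Animals in the study were of both sexes and 8 to 12 weeks old when in vivo experiments began, but the donors of these cells are not described separately. The labels do not say whether replicates came from separate animals or cultures, so the p-values measure the spread between these libraries, of which an unknown part may be technical. Replicate 1 of both groups held 1505 and 1430 reads of *Eif2s3y* and 19 and 1 reads of *Xist*, where the other 6 libraries held at most 5 and at least 14676, so the libraries do not all come from a single animal. In bulk RNA, fewer cells of a type and less RNA per cell cannot be told apart.

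In the cell, eIF4E binds the mRNA cap, eIF4G bridges it to the helicase eIF4A and to eIF3 on the small ribosomal subunit, and eIF2 delivers the initiator tRNA. After start-codon recognition eIF2B recharges eIF2 with GTP, a step blocked when one of the *Eif2ak* kinases phosphorylates eIF2α. eEF1A then carries each aminoacyl-tRNA to the ribosome and eEF2 drives translocation, which eEF2 kinase slows. Synthesis of proteins is demanding of energy, and both the 4E-BP repressors and eEF2 kinase are well-known brakes on it in cells short of oxygen or nutrients.

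Each library held 11351507 to 14116054 reads on genes. The 11 leukemic progenitor markers (*Kit*, *Hoxa9*, *Meis1*, *Mpo* and others) were all present at a mean of 1 CPM or more, CPM being read counts set to a common library total with TMM factors. T cell markers summed to at most 0.162 CPM in any library, B cell markers to 3.01 to 8.63 CPM and erythroid markers to 5.13 to 40.9 CPM, and 0 of the 5 stromal markers reached a mean of 1 CPM. *Cd3g*, *Cd4*, *Cd8a*, *Col1a2* and *Ms4a1* were at 0. The 7 macrophage markers summed to 148 to 206 CPM with DMSO and 226 to 501 CPM with IOX5, and 5 of the 7 were at 1 CPM or more on average, with *C1qa* and *C1qc* below it. Their part in the results below was not tested.

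Most members had slightly lower transcript levels with IOX5, by amounts that mostly missed the threshold. Of the 67 members, 63 had enough reads to be tested, and 52 of these 63 (82.5%) had a negative log2 fold change (IOX5 over DMSO), against 47.2% of all 12405 genes tested. The median log2 fold change of the members was -0.12, against 0.02 for all genes tested. *Eef1a2* and *Eif4e1b*, isoforms known from muscle and neurons and from germ cells, had 0 reads in all 8 libraries, and *Eif4ebp3* and *Eef1akmt3* stayed too low to test.

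In edgeR's quasi-likelihood test with Benjamini-Hochberg adjustment, 1 member passed an adjusted p of 0.05 with a higher level, where 0.774% of all genes tested did. No member passed with a lower level (0 of 63, where 1.25% of all genes did), although 22 members had a lower level at an unadjusted p under 0.05, as did 11.2% of all genes. At that unadjusted threshold 2 members were higher, where 8.98% of all genes were. DESeq2 called 12 members lower and 1 higher at an adjusted p under 0.05, where it called 5.75% and 4.67% of the 10471 genes it gave an adjusted p. At an adjusted p under 0.1 in edgeR, 8 members were lower and the same 1 was higher, where 3.92% and 2.68% of all genes were.

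The samples carry replicate numbers, and libraries with the same number deviated together across genes, though number 4 slightly more with another number. The labels do not say what the numbers mark, and the numbers were treated as pairs. With the replicate number as a block in the same edgeR model, 15 members were called lower (23.8% of the 63, where 9.43% of all genes were) and 2 higher (3.17%, where 11.2% of all genes were). The 15 were *Eif2s1*, *Eif2s2*, *Eif2s3x*, *Eif2b1*, *Eif2b3*, *Eif3a*, *Eif4a1*, *Eif4a3*, *Eif4h*, *Eif4e*, *Eif4g1*, *Eif5*, *Eif1ad*, *Eef1a1* and *Eef1e1*, and the 2 were *Eif2d* and *Eef2k*. Beside each of these members the text gives both adjusted p-values, the second one with the block. Without regard to any model, the IOX5 libraries all lay below all DMSO libraries for 16 members, where 8.3% of all genes did so, and above them for 1 member, where 5.98% did.

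**Figure D1:**
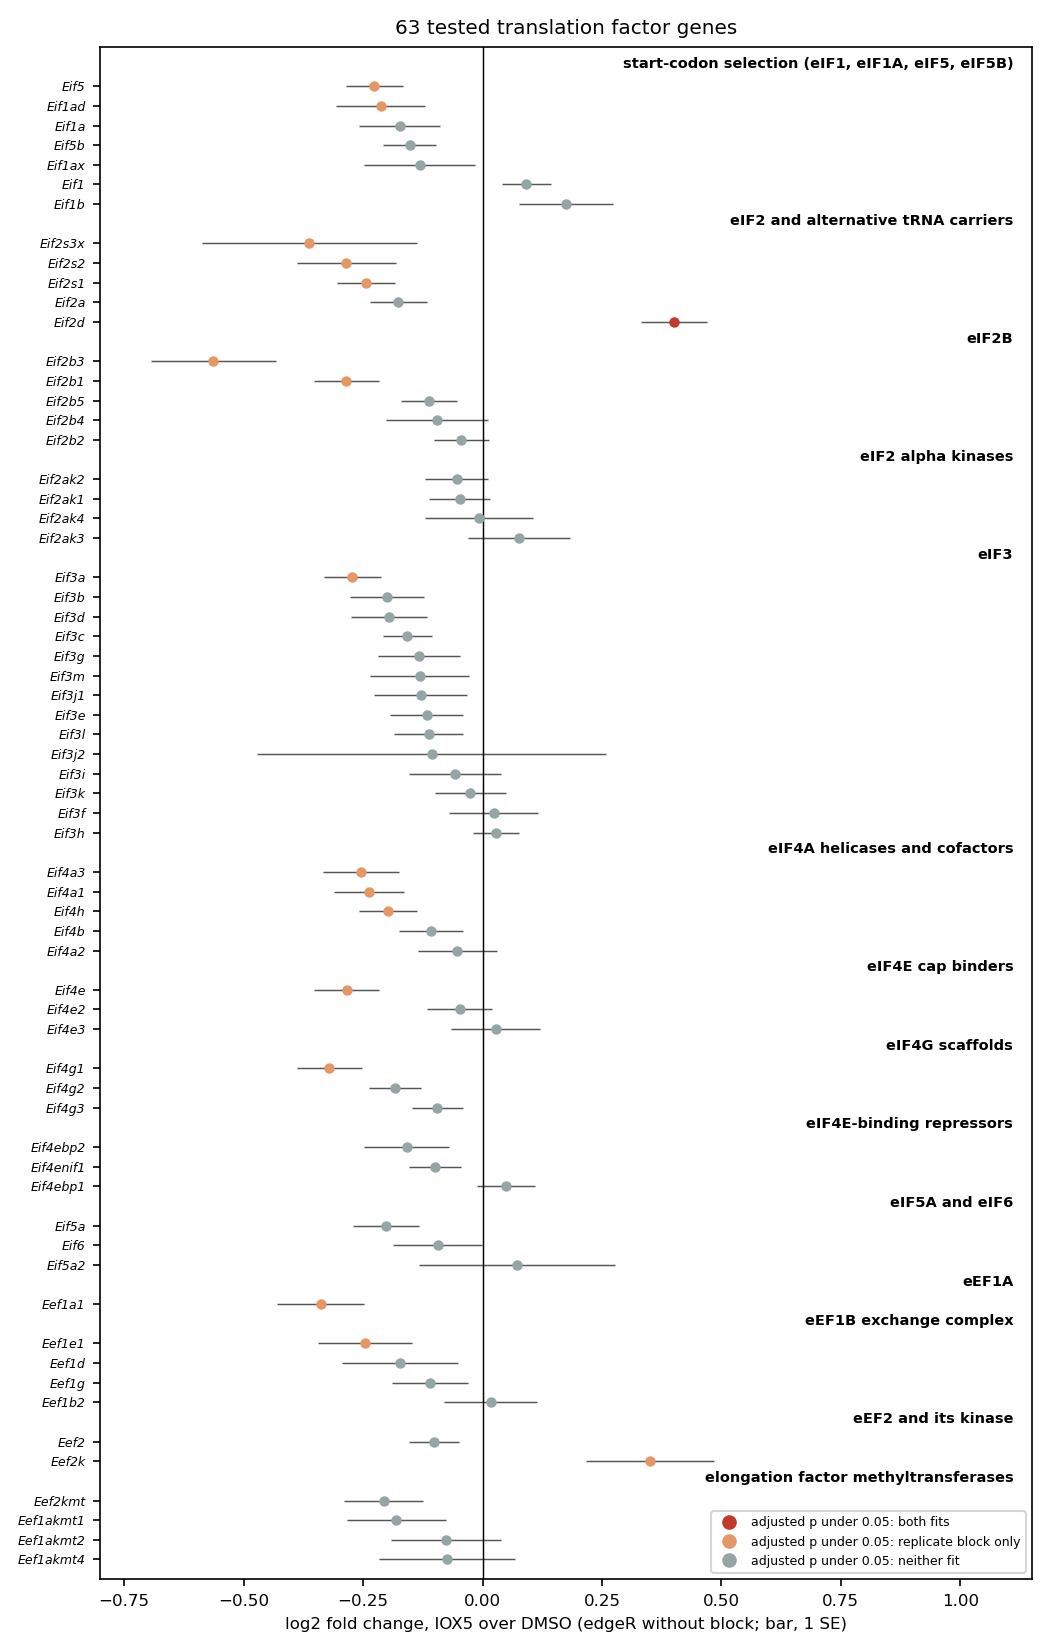
Log2 fold change of each of the 63 tested members (horizontal axis, IOX5 over DMSO; bars, 1 SE), arranged by factor group on the vertical axis and colored by whether edgeR called the gene at an adjusted p under 0.05. *Eif2d* alone was called without and with the replicate block, 16 further genes were called with the block only, and 52 of the 63 points lie to the left of 0.

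The reads on members also formed a smaller part of each library. Members together summed to 27967 ± 428 CPM with DMSO and 24628 ± 1296 CPM with IOX5 (SD, n = 4 each), which is 11.9% less, and the groups did not overlap (27505 to 28539 against 23130 to 26164). *Eef1a1* alone made up 18.5% of the DMSO sum and 32.4% of the difference. Without *Eef1a1* the sum was 22797 ± 579 CPM with DMSO and 20540 ± 1142 CPM with IOX5, and the groups again did not overlap. These sums add up reads and so weight long and abundant transcripts most.

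*Eif2d* was the member that rose in both fits. Its product, eIF2D, is a non-canonical factor that can deliver initiator tRNA without eIF2 and takes part in recycling ribosomes. The gene (ENSMUSG00000026427, GRCm38 chr1:131153181-131187658, plus strand) had 57.7, 55.1, 57.0 and 58.1 CPM in DMSO replicates 1 to 4 and 71.2, 68.6, 80.4 and 80.7 CPM in the IOX5 replicates. All 4 IOX5 libraries lay above all 4 DMSO libraries. The log2 fold change was 0.40 (SE 0.07, 1.32-fold), with an adjusted p of 0.0304 in edgeR and 0.0015 with the block. The call was lost when any 1 of the DMSO libraries or IOX5 replicate 1 or 3 was left out (adjusted p 0.0376 to 0.124 over the 8 fits, log2 fold change 0.37 to 0.44), and in those 6 fits 0 to 71 genes of the whole table were called.

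*Eif2d* shares exon sequence with *Rassf5* on the opposite strand, so the strand of the reads matters for it. The kit keeps the strand, and in the 6 libraries where *Xist* had 14676 to 21314 reads its antisense partner *Tsix* had 1 to 7. *Rassf5* had 82.1 to 88.8 CPM with DMSO and 74.0 to 112 CPM with IOX5, and its log2 fold change of 0.04 (SE 0.12) had an adjusted p of 0.887.

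The other 4 genes of the eIF2 group had negative log2 fold changes. *Eif2s1* encodes eIF2α, the subunit that the stress kinases phosphorylate. It had 221, 244, 234 and 245 CPM with DMSO and 194, 189, 202 and 213 CPM with IOX5. The groups did not overlap, and the log2 fold change of -0.24 (SE 0.06) had an adjusted p of 0.0719, or 0.0164 with the block. *Eif2s2*, which encodes eIF2β, had 293, 348, 320.1 and 324 CPM with DMSO and 262, 233, 242 and 319 CPM with IOX5. IOX5 replicate 4 lay inside the DMSO range, and the log2 fold change was -0.29 (SE 0.10; adjusted p 0.171, with the block 0.0263). *Eif2a*, an alternative tRNA carrier unrelated in sequence to eIF2α, had a log2 fold change of -0.18 (SE 0.06) and passed in neither fit (0.147 and 0.0642).

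*Eif2s3x*, the X-linked gene for eIF2γ, shows what the replicate number does. It had 138, 255, 228 and 242 CPM with DMSO and 110.3, 175, 190.0 and 195 CPM with IOX5, so that replicate 1 was the lowest of its group on both sides. These are the libraries that held reads of the Y-linked copy *Eif2s3y*, which the rule set aside. Every IOX5 library was below the DMSO library of its number, and the log2 fold change of -0.36 went from an adjusted p of 0.408 (SE 0.22) to 0.0027 with the block.

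The eIF2B exchange factor, the GTP loader of eIF2, was uneven across its 5 subunits. *Eif2b3*, which encodes the γ subunit of its catalytic part, had the most negative log2 fold change of all members. It had 40.4, 51.5, 47.5 and 48.3 CPM with DMSO and 28.7, 26.5, 32.5 and 39.4 CPM with IOX5. No IOX5 library reached the lowest DMSO library and IOX5 replicate 4 came nearest to it. The log2 fold change was -0.56 (SE 0.13, 0.677-fold, adjusted p 0.0608, with the block 0.0016).

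*Eif2b1*, for the regulatory α subunit, also separated the groups. It had 83.7, 90.5, 82.1 and 78.1 CPM with DMSO and 67.4, 67.6, 64.8 and 74.8 CPM with IOX5, a log2 fold change of -0.28 (SE 0.07, adjusted p 0.0677, with the block 0.0139). *Eif2b5*, *Eif2b4* and *Eif2b2* differed by -0.11, -0.10 and -0.04 on the log2 scale and passed in neither fit. Per kilobase of merged exons, *Eif2b3* was also the least abundant of the 5 in DMSO cells, at 7.20 ± 0.71 CPM, against 48.3 ± 1.8 for *Eif2b5* and 43.0 ± 2.3 for *Eif2b2* (SD, n = 4). It stayed lowest, at 12.5 CPM per kilobase, when the longest single transcript was used as the length.

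The 4 eIF2α kinases passed in neither edgeR fit, nor did any reach an unadjusted p of 0.05 or a call by DESeq2. *Eif2ak1* (HRI, a sensor of heme) had a log2 fold change of -0.05 (SE 0.06), with 80.8, 88.6, 79.5 and 80.6 CPM in DMSO and 75.3, 81.0, 85.6 and 76.8 CPM in IOX5. *Eif2ak2* (PKR, a sensor of double-stranded RNA) had -0.05 (SE 0.07), with 101, 98.4, 101 and 103 CPM in DMSO and 104, 103, 90.0 and 91.2 CPM in IOX5. In both genes the groups overlapped.

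*Eif2ak3* (PERK, of the endoplasmic reticulum) had 47.0, 46.7, 46.1 and 38.8 CPM with DMSO and 49.6, 52.1, 48.1 and 38.5 CPM with IOX5, a log2 fold change of 0.08 (SE 0.11). Replicate 4 was the lowest library of each group. *Eif2ak4* (GCN2, a sensor of uncharged tRNA) had 50.3, 39.3, 44.9 and 45.6 CPM with DMSO and 50.7, 43.6, 48.1 and 36.8 CPM with IOX5, a log2 fold change of -0.01 (SE 0.11) whose sign depended on the scaling. The adjusted p-values of the 4 kinases lay between 0.687 and 0.981, which does not show that their levels were equal.

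eIF3, the scaffold of the small-subunit complex, was the biggest group with 14 tested genes. Of these, 12 had a negative log2 fold change, the median was -0.12, and none passed without the block. With the block 1 was lower (7.14%, where 9.43% of all genes were). At an unadjusted p under 0.05, 4 were lower (28.6%, where 11.2% were), and DESeq2 called 2 lower (14.3%, where 5.75% were). *Eif3a*, the core subunit, had 917, 1048, 953 and 988 CPM with DMSO and 807, 769, 831 and 826 CPM with IOX5. The groups did not overlap (log2 fold change -0.27, SE 0.06, adjusted p 0.0545, with the block 0.0142). *Eif3c*, its partner in the core, had 626, 644, 637 and 633 CPM against 562, 549, 564 and 604 CPM, again without overlap, and at -0.16 (SE 0.05) it passed in neither fit (0.137 and 0.0936).

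Other eIF3 subunits were close to level. *Eif3h* and *Eif3f*, of the peripheral module, had log2 fold changes of 0.03 (SE 0.05) and 0.02 (SE 0.09), and *Eif3k* had -0.03 (SE 0.07). *Eif3j2* is a near copy of *Eif3j1* and had under 1 CPM in every library, so reads that match both copies may be missing from either. Levels per length were spread even among subunits of this single complex. Leaving out *Eif3j2*, at 0.328 CPM per kilobase, in DMSO cells they ran from 197 ± 11 CPM per kilobase of merged exons for *Eif3b*, then 181 ± 2.1 for *Eif3c* and 165 ± 2.1 for *Eif3h*, down to 17.4 ± 1.7 for *Eif3j1* (SD, n = 4). This order depended on the length used. *Eif3a* had 112 CPM per kilobase of merged exons, but 190 with its longest transcript as the length, where *Eif3c* had 188.

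Among the cap binders, *Eif4e* was set apart from its relatives. *Eif4e* encodes the cap binder that is limiting for many growth-related mRNAs. It had 187, 205, 196 and 194 CPM with DMSO and 159, 146, 159 and 178 CPM with IOX5, and the groups did not overlap. The log2 fold change was -0.28 (SE 0.07, adjusted p 0.0675, with the block 0.0120). *Eif4e2*, which encodes the 4EHP protein known both as a repressor and as the cap binder of hypoxic cells, had 109, 125, 116 and 118 CPM against 103, 111, 118 and 120.5 CPM. These groups overlapped, and the log2 fold change was -0.05 (SE 0.07).

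The helicase eIF4A and its cofactors had 5 negative log2 fold changes of 5. *Eif4a1*, the main helicase, had 1165, 1253, 1161 and 1223 CPM with DMSO and 989.9, 941, 986 and 1155 CPM with IOX5. The groups did not overlap, with IOX5 replicate 4 just below the lowest DMSO library (log2 fold change -0.24, SE 0.07, adjusted p 0.118, with the block 0.0281). Its paralog *Eif4a2* had 256, 249, 268 and 293 CPM against 253, 227, 260.2 and 286 CPM, an overlapping pair of groups with a log2 fold change of -0.05 (SE 0.08).

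*Eif4h*, for a cofactor that stimulates the helicase, had 624, 667, 636 and 630.4 CPM with DMSO and 533, 530.3, 564 and 604 CPM with IOX5, without overlap. Its log2 fold change was -0.20 (SE 0.06, adjusted p 0.115, with the block 0.0497). *Eif4a3*, the helicase of the exon junction complex that sits on spliced mRNA, had 235, 269.6, 250.2 and 254 CPM with DMSO and 199, 201, 203 and 243 CPM with IOX5. IOX5 replicate 4 alone overlapped the DMSO group, and the log2 fold change was -0.25 (SE 0.08; 0.122 and 0.0198). *Eif4b*, for the other cofactor, differed by -0.11 (SE 0.07) and passed in neither fit.

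Among the scaffolds, *Eif4g1* (ENSMUSG00000045983, GRCm38 chr16:20668313-20692884, plus strand) had the smallest adjusted p of the lower members in the fit without the block. It had 1070.2, 1182, 994 and 1019.8 CPM with DMSO and 821, 845, 849 and 901 CPM with IOX5. All IOX5 libraries lay below all DMSO libraries, and the log2 fold change was -0.32 (SE 0.07, adjusted p 0.0510, with the block 0.0073). *Eif4g2*, which encodes DAP5, a scaffold that lacks the eIF4E-binding part, had 2253, 2423, 2246 and 2223 CPM against 1946, 1972, 2083 and 2053 CPM. These did not overlap either, but at -0.18 (SE 0.05) it passed in neither fit (0.108 and 0.0704).

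The repressors that compete with eIF4G for eIF4E passed in neither fit. *Eif4ebp1* encodes 4E-BP1, which mTORC1 inactivates by phosphorylation. It had 96.1, 101, 91.9 and 94.2 CPM with DMSO and 103, 97.8, 92.6 and 104 CPM with IOX5 (log2 fold change 0.05, SE 0.06, adjusted p 0.696). *Eif4ebp2* had 379, 366, 304 and 311 CPM against 306, 331, 299 and 282 CPM (-0.16, SE 0.09, adjusted p 0.357). In both genes the groups overlapped. *Eif4enif1*, which encodes the transport protein 4E-T, had 108, 109, 110.3 and 111 CPM with DMSO and 98.2, 99.1, 109 and 103 CPM with IOX5, a log2 fold change of -0.10 (SE 0.05).

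**Figure D2:**
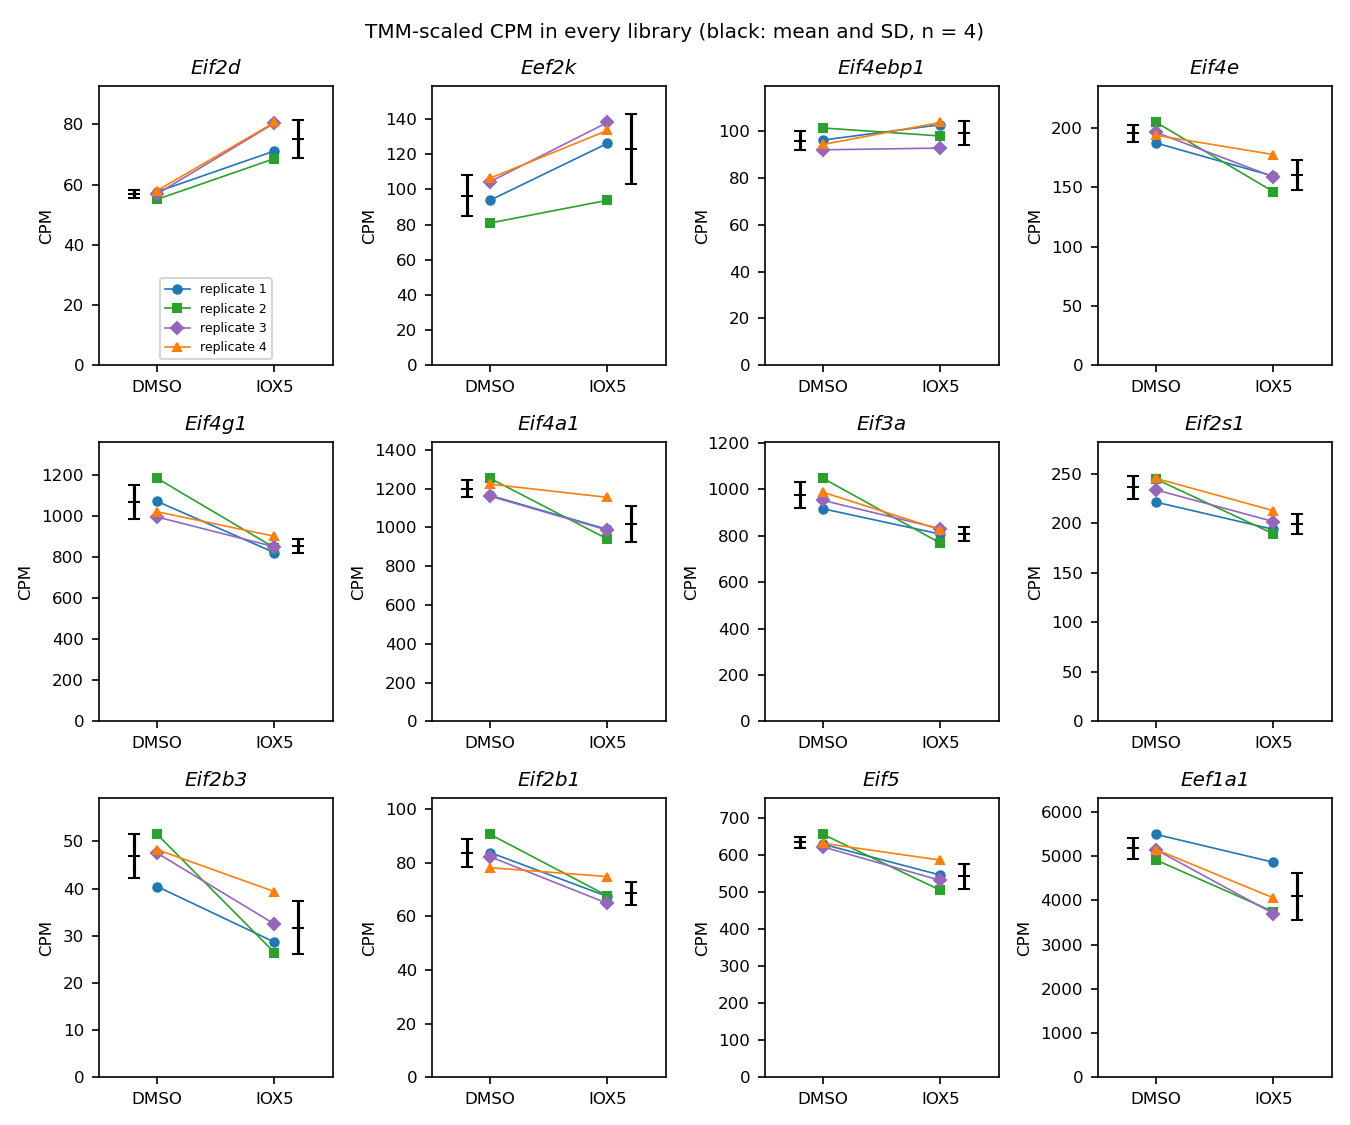
TMM-scaled CPM (vertical axis, from 0) of 12 members in each DMSO and IOX5 library, with lines joining libraries of the same replicate number and black marks for mean and SD (n = 4). The IOX5 points of *Eif2d* lie above all DMSO points, those of *Eif4ebp1* and *Eef2k* overlap the DMSO points, and those of the other 9 genes lie below all DMSO points.

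Start-codon selection had members on both sides. *Eif5* encodes the activator of GTP hydrolysis by eIF2. It had 628, 655, 621 and 631 CPM with DMSO and 545, 504, 531 and 586 CPM with IOX5, without overlap, and a log2 fold change of -0.23 (SE 0.06, adjusted p 0.0812, with the block 0.0285). *Eif5b*, for the factor that joins the subunits, had 229.9, 231, 237 and 239 CPM against 214, 202, 202 and 225 CPM, also without overlap, at -0.15 (SE 0.06; 0.171 and 0.0970). *Eif1ad*, related to eIF1A, had 109.6, 117, 121 and 121 CPM with DMSO and 93.6, 91.8, 98.1 and 121 CPM with IOX5. Again IOX5 replicate 4 alone overlapped the DMSO group, and the log2 fold change of -0.21 passed with the block only (0.247 and 0.0417).

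*Eif1*, which encodes the factor that guards the fidelity of start-codon choice, was above 0 in its log2 fold change, at 0.09 (SE 0.05), as was *Eif1b* at 0.18 (SE 0.10). Both were higher with IOX5 in 4 of 4 same-numbered pairs and neither passed in any fit. In all, 4 members were higher in every pair, these and *Eif2d* and *Eef2k*, while 30 of the 63 (47.6%) were lower in every pair. Of all genes tested, 21.3% were higher and 19.8% were lower in every pair.

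In elongation, *Eef1a1*, the carrier of aminoacyl-tRNA, was the most abundant member. Per kilobase of merged exons it stood at 2074 ± 96 CPM in DMSO cells (SD, n = 4), the level ranked 5 of the 12405 genes tested, ahead of *Eef2* at 1031 ± 32 and *Eif5a* at 674 ± 30. With the longest single transcript as the length, the levels were 2882 for *Eef1a1*, 1109 for *Eef2* and 1114 for *Eif5a*. The order of *Eef2* and *Eif5a* thus depended on the length used. *Eef1a1* had 5487, 4908, 5140.4 and 5144 CPM with DMSO and 4859, 3741, 3700.3 and 4053 CPM with IOX5. The groups did not overlap, but IOX5 replicate 1 was just below the lowest DMSO library. The log2 fold change was -0.34 (SE 0.09, adjusted p 0.0886, with the block 0.0054), and without IOX5 replicate 1 the unblocked adjusted p was 0.0434. This gene has many processed pseudogenes, and reads matching several places were left out of the counts.

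The eEF1B exchange complex, which reloads eEF1A with GTP, had 3 negative log2 fold changes of 4, with a median of -0.14. *Eef1d*, *Eef1g* and *Eef1b2* differed by -0.17, -0.11 and 0.02 and passed in neither fit. *Eef1e1*, which encodes a small protein of the aminoacyl-tRNA synthetase complex and is grouped here by its name, differed by -0.25 (SE 0.10) and passed with the block only (0.208 and 0.0327). It had 55.1, 59.0, 58.3 and 61.8 CPM with DMSO and 48.3, 44.5, 45.0 and 59.6 CPM with IOX5. *Eef1d*, one of the exchange subunits, had 239.9, 271, 265 and 279 CPM against 216, 206, 214 and 300.2 CPM. In both genes IOX5 replicate 4 stood apart from the other 3 IOX5 libraries and lay within or above the DMSO range.

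*Eef2* and its kinase had log2 fold changes of opposite sign. *Eef2*, the translocase, had 3567, 3449.6, 3324 and 3364 CPM with DMSO and 3269, 3028, 3262 and 3209.8 CPM with IOX5. The groups did not overlap, at a log2 fold change of -0.10 (SE 0.05) that passed in neither fit (0.314 and 0.299). *Eef2k* (ENSMUSG00000035064, GRCm38 chr7:120842831-120907450, plus strand) had 94.0, 81.0, 104 and 106 CPM with DMSO and 126, 93.9, 138 and 134 CPM with IOX5. Replicate 2 was the lowest library of each group, so the groups overlapped, and each IOX5 library was above the DMSO library of its number. The log2 fold change of 0.35 had an adjusted p of 0.189 (SE 0.13) and of 0.0028 with the block.

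Hypusine-carrying *Eif5a*, which helps ribosomes through stalling sequences, had 1555, 1706, 1572 and 1572 CPM with DMSO and 1322, 1353, 1332 and 1560.3 CPM with IOX5. IOX5 replicate 4 overlapped the DMSO group, and the log2 fold change of -0.20 (SE 0.07) passed in neither fit (0.155 and 0.0570). *Eif6*, which keeps ribosomal subunits apart, had 174, 202, 180.4 and 195 CPM against 159, 169, 168 and 208 CPM, a log2 fold change of -0.09 (SE 0.09) with overlapping groups. Of the methyltransferases that modify elongation factors, *Eef2kmt* had 24.8, 27.5, 25.2 and 25.5 CPM against 22.2, 23.5, 20.3 and 23.2 CPM (-0.21, SE 0.08). *Eef1akmt1* had 22.1 ± 2.4 CPM against 19.5 ± 1.3 CPM (SD, n = 4), with overlapping groups (-0.18, SE 0.10). Neither passed in either fit.

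**Figure D3:**
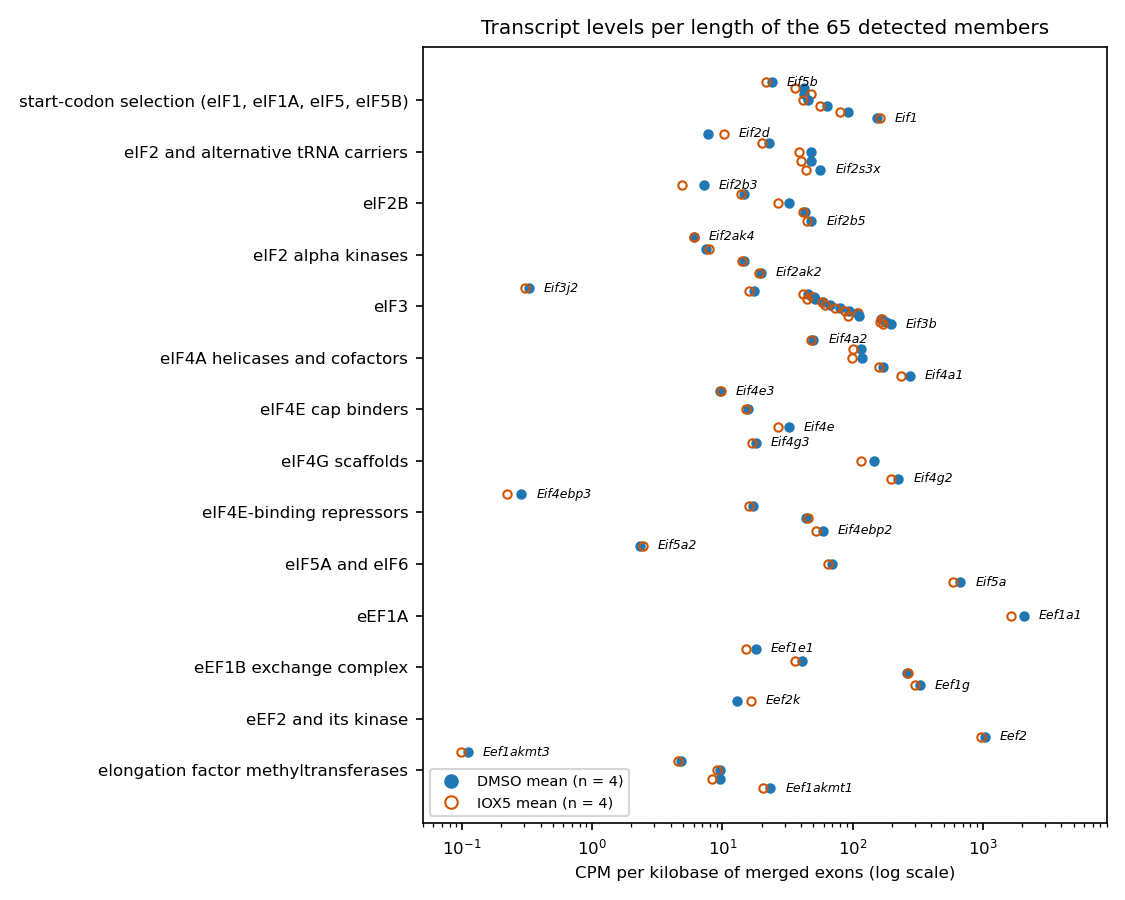
Mean CPM per kilobase of merged exons (log axis) of the 65 members with any reads, by factor group, in DMSO (filled) and IOX5 (open) libraries. Levels run from 0.111 for *Eef1akmt3* to 2074 for *Eef1a1* in DMSO cells, and the names mark the lowest and highest member of each group.

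In the levels of the members, IOX5 replicate 4 was closer to the DMSO libraries than the other IOX5 libraries were. It held the highest IOX5 level of 41 of the 63 members (65.1%), where it held the highest level of 26.4% of all genes tested. It was below every DMSO library for 25 members, against 40, 43 and 44 members for IOX5 replicates 1, 2 and 3, a count not made over all genes. IOX5 replicate 2 held the lowest IOX5 level of 32 of the 63 members, and of 4087 of the 12405 genes tested. The median log2 difference of the members within same-numbered pairs was -0.13, -0.29, -0.14 and -0.03 for pairs 1 to 4, against 0.0044, 0.04, -0.00079 and 0.0039 for all genes tested. Without IOX5 replicate 4, edgeR without the block called 15 members lower, where 2.64% of the genes tested in that fit were, and 1 higher, where 1.03% were. Of the 15, 12 were among those called lower with the block.

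**Figure D4:**
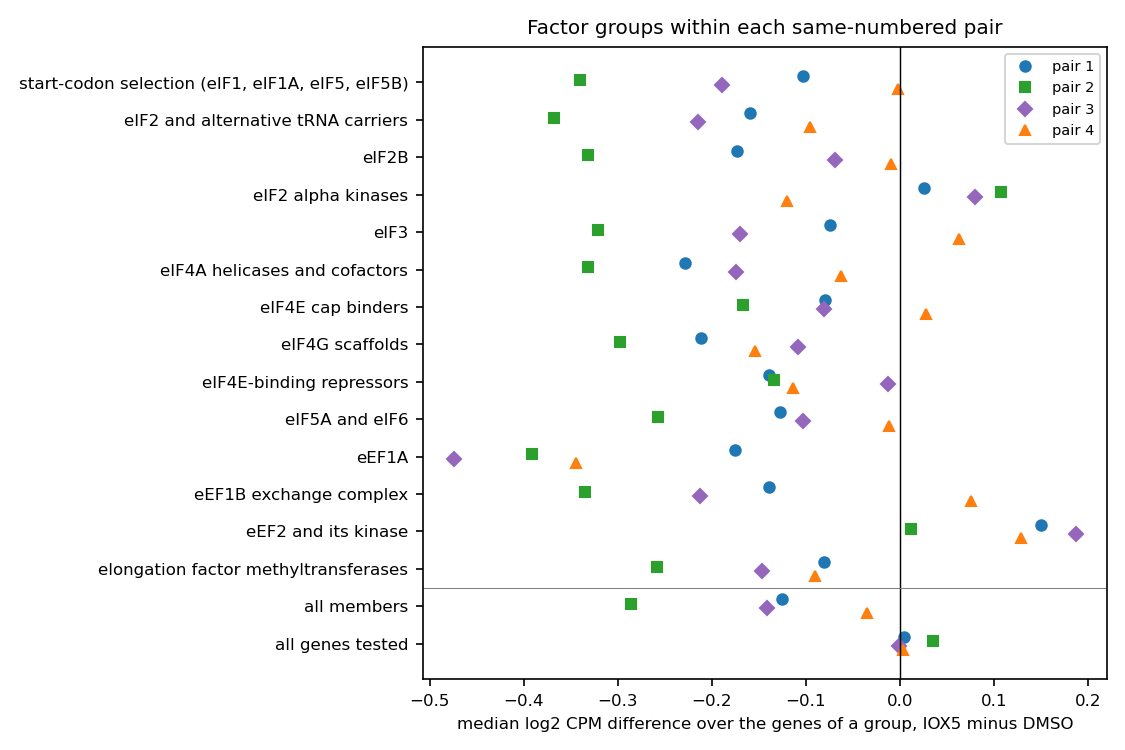
Median log2 CPM difference over the tested genes of each factor group (horizontal axis, IOX5 minus DMSO) within each same-numbered pair, with all members and all genes tested at the bottom. The all-member medians lie at -0.13, -0.29, -0.14 and -0.03, and pair 4 is the nearest to 0, while eIF2α kinases and eEF2 with its kinase are the groups with 3 or more pairs above 0. The eEF2 group holds only 2 genes, *Eef2*, lower in every pair, and *Eef2k*, higher in every pair.

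The blocked counts also rested on particular pairs. With replicate number 1, 2, 3 or 4 left out of the blocked fit, 6, 9, 3 and 20 members were called lower, where 5.28%, 8.2%, 3.23% and 8.48% of the genes tested in those fits were. Only *Eif2b3* and *Eif2s3x* were among the calls of all 4 of these fits. *Eif2d* and *Eef2k* were the 2 members called higher in each of the 4, where 8.07%, 9.03%, 5.14% and 10.9% of genes were.

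Ratios of paired genes within a library do not depend on how libraries are scaled. In 11 pairs of paralogs or partners, the difference in mean log2 ratio was tested with a two-sided exact permutation test of the 70 assignments, whose smallest p is 0.0286. *Eif4e* against *Eif4ebp1* had a log2 ratio of 1.03 ± 0.05 with DMSO and 0.69 ± 0.10 with IOX5 (SD, n = 4), a difference of -0.34. *Eif4e* against *Eif4e2* went from 0.74 ± 0.03 to 0.50 ± 0.11, a difference of -0.24. In both, all IOX5 libraries were below all DMSO libraries.

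The log2 ratio of *Eif4g1* differed by -0.22 against *Eif4g3* and by -0.14 against *Eif4g2*, and that of *Eif4a1* by -0.19 against *Eif4a2*. All 5 of these ratios separated the groups and reached the smallest exact p that the permutations can give, 0.0286, which became 0.0629 after adjustment over the 11 pairs. *Eef2* against *Eef2k* differed by -0.44 and was lower in 4 of 4 pairs, with overlapping groups and an exact p of 0.0857 (adjusted 0.157). *Eif4ebp1* against *Eif4ebp2* differed by 0.20 (exact p 0.114, adjusted 0.180). For the 4 other pairs the adjusted exact p lay between 0.489 and 0.943.

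**Figure D5:**
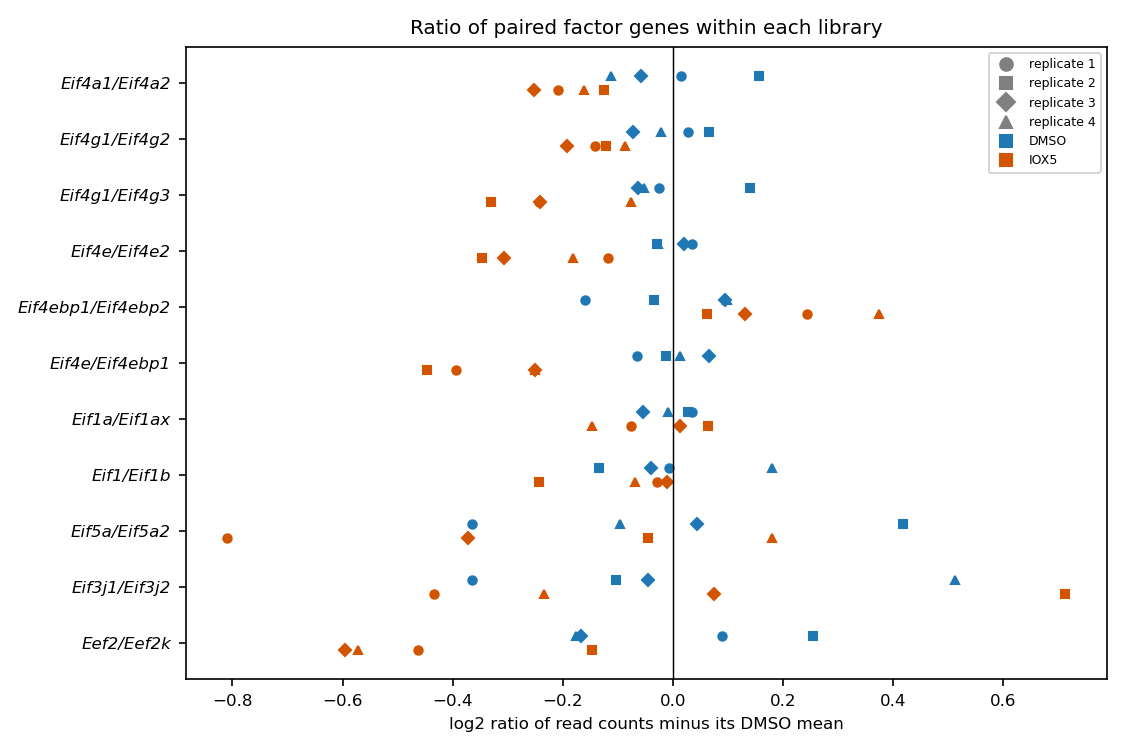
Log2 ratio of read counts of 11 gene pairs in each library, drawn as the distance from the DMSO mean of that pair (horizontal axis; blue, DMSO; orange, IOX5; marker shape, replicate number). The orange points of *Eif4a1*/*Eif4a2*, *Eif4g1*/*Eif4g2*, *Eif4g1*/*Eif4g3*, *Eif4e*/*Eif4e2* and *Eif4e*/*Eif4ebp1* lie to the left of all their blue points.

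Many genes of protein synthesis carry the E-box CACGTG, the letters that MYC and its partner MAX are known to bind, near their start. The promoter table of RefSeq (GRCm38.p6) had entries for 51 of the 67 members, and 12 of these 51 (23.5%) held CACGTG in the 250 bases before an annotated start, where 6.86% of 27025 genes and 6.02% of 32851 promoters did. Of the 9320 tested genes with an entry, 10.1% held it. The motif is its own reverse complement, and it contains ACGTG, a form of the core that HIF is known to bind. On either strand 41.2% of the members and 18.5% of all genes held ACGTG. The 21 members with ACGTG thus include the 12 with the E-box. Either form of the core, ACGTG or GCGTG, was held by 66.7% of the members and 41.5% of all genes. For these cores no share over the tested genes was computed. The windows below show the E-box (in capitals) and its flanks for members of both directions, choosing windows outside annotated exons. *Eif4g1* and *Eif4a1* were called lower with the block and *Eef2k* higher, while *Eef2*, *Eif3f* and *Eif3k* passed in neither fit.

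*Eif4g1* (chr16:20672651-20672700, plus strand): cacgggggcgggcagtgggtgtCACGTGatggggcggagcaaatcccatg
*Eif4a1* (chr11:69672585-69672634, minus strand): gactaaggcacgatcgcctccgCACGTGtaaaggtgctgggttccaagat
*Eef2k* (chr7:120842778-120842827, plus strand): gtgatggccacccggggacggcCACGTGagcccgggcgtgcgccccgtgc
*Eef2* (chr10:81176566-81176615, plus strand): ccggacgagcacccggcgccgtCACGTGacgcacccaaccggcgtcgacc
*Eif3f* (chr7:108934325-108934374, plus strand): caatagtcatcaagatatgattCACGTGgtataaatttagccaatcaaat
*Eif3k* (chr7:28981905-28981954, minus strand): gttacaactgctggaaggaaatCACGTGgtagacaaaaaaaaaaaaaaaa

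The 12 members with CACGTG also include *Eif4h*, *Eif1b*, *Eef1akmt4* and, with 2 positions each, *Eif4e*, *Eif5a* and *Eif5a2*. Of the 12, 8 had a negative and 4 a positive log2 fold change, with a median of -0.09. With the block 4 of them were called lower (33.3%, where 9.43% of all genes were) and 1 higher (8.33%, where 11.2% were). Of the 38 tested members whose entries lacked CACGTG, 34 were negative and 4 positive, with a median of -0.13. Of these, 10 were called lower with the block (26.3%) and 1 higher (2.63%). The difference between these sets was not tested. A match of letters is a description and not a binding site.

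The other genes of the pathway were taken from 8 lists with 54 genes, all of them tested. Their median log2 fold change was -0.11, and 36 of 54 (66.7%) were negative, where 47.2% of all genes tested were. Without the block 1 gene was lower and 0 were higher at an adjusted p under 0.05 in edgeR, with 14 lower and 2 higher at an unadjusted p under 0.05 and 10 lower and 2 higher in DESeq2. With the block 11 were lower (20.4%) and 2 higher (3.70%). The shares of all genes in each of these fits are those given above.

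The gene that passed without the block was *Trib3*, a pseudokinase and target of the stress factor ATF4, in the list of eIF2α phosphatases and the integrated stress response. It fell by 0.55 on the log2 scale (SE 0.09, 47.1 to 32.3 CPM, adjusted p 0.0260, with the block 0.0011). In the same list *Ppp1r15b*, for the constitutive eIF2α phosphatase subunit, differed by -0.31 (0.105, with the block 0.0042), and *Atf4* itself by -0.25 (0.111, with the block 0.0184). Its other 3 genes (*Ppp1r15a*, *Ddit3* and *Impact*) passed in neither fit. *Ppp1r15a*, whose values are given after they were seen, differed by 0.27 (SE 0.13; 0.291 and 0.118). Its IOX5 libraries (12.81 to 17.8 CPM) all lay above its DMSO libraries (11.7 to 12.78 CPM).

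Among poly(A), cap and scanning partners, 3 of 11 genes (27.3%) were lower and 2 (18.2%) higher with the block, and none passed without it. With the block 9.43% of all genes were lower and 11.2% higher. *Larp1*, which binds the caps of mRNAs for ribosomal proteins, differed by -0.37 (SE 0.08; 0.0560 and 0.0052). *Pdcd4*, an inhibitor of eIF4A, differed by 0.40 (SE 0.10; 0.0680 and 0.0011), and its IOX5 libraries lay above all DMSO libraries. The other gene called higher with the block was *Paip2*, an inhibitor of poly(A)-binding protein, at 0.40 (SE 0.13; 0.136 and 0.00087). The other genes called lower with the block were *Ddx3x*, a helicase for structured mRNAs, at -0.33 (SE 0.09; 0.0888 and 0.00423), and *Pabpc4*, a poly(A)-binding protein, at -0.33 (SE 0.10; 0.106 and 0.0188). *Paip2*, *Ddx3x* and *Pabpc4* were named after their values were seen, and in each of them the groups overlapped. For *Ddx3x*, as for *Eif2s3x*, replicate 1 was the lowest library of both groups (985 CPM with DMSO, 843 CPM with IOX5).

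Of the 6 termination, recycling and rescue genes, 3 were lower with the block, where 9.43% of all genes were. They were *Abce1*, the ATPase that splits ribosomes, at -0.29 (SE 0.07; 0.0676 and 0.0148), *Gspt1*, for the release factor eRF3a, at -0.27 (SE 0.07; 0.0744 and 0.0137), and *Etf1*, for the release factor eRF1 and named after its values were seen, at -0.19 (SE 0.07; 0.18 and 0.0463). Of 10 mitochondrial translation factors, 2 were lower with the block, against the same 9.43% of all genes. These 2 were *Gfm2* at -0.24 (SE 0.06; 0.0734 and 0.0270) and *Gfm1* at -0.21 (SE 0.06; 0.103 and 0.0437).

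The remaining 4 lists had no gene called in either edgeR fit or by DESeq2, and of their genes *Rps6kb1* alone was below an unadjusted p of 0.05. For the 9 genes of mTORC1, S6K and MNK signaling, which control eIF4E and 4E-BP1, the median log2 fold change was 0.01, and the smallest p-values were those of *Rps6kb1* at -0.17 (adjusted p 0.137) and *Mlst8* at -0.14 (0.355). The 7 genes of diphthamide synthesis, which modify eEF2, had a median of -0.11, with *Dph5* at -0.20 (0.286) and *Dph6* at -0.14 (0.351). The hypusination enzymes *Dhps* and *Dohh*, which act on eIF5A, had -0.17 (0.438) and -0.15 (0.540). The non-canonical initiation genes *Denr* and *Mcts1*, whose products together resemble eIF2D, had 0.07 (0.715) and 0.02 (0.901).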

How the data were processed

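The study measured poly(A) RNA of leukemic cells by directional RNA-seq. Per the labels and the study's methods, the authors trimmed reads with cutadapt 1.18, aligned them to GRCm38 with HISAT2 2.2.1 and deposited raw read counts per gene from HTSeq 2.0.1, which leaves out reads with several matches. Lines that name no gene (20.6% to 22.6% of reads) were dropped here. The 12405 genes that passed edgeR's filterByExpr were fitted (edgeR 4.0.16, R 4.3.3, TMM, quasi-likelihood, Benjamini-Hochberg over all genes), first without and then with the replicate number as a block. Deviations of same-numbered libraries correlated at 0.636 to 0.758, so the numbers were treated as pairs. Replicate 4 correlated slightly more with another number (0.685 against 0.636), so its pairing is not established. DESeq2 1.42.0, RLE and upper-quartile scaling, other filters and each library left out were alternatives. The fits were tested on simulated data: of 99 genes changed by 0.5 on the log2 scale, 20 were recovered without the block and 7 with it (12264 genes). Of 98 genes changed by 1, 57 and 49 were recovered, with 7 and 3 false calls. The simulated libraries shared no replicate effect, so these counts cannot tell how the block performs on the real libraries. Ratios used a prior of 0.5 counts. Members and lists were chosen with earlier results of these data known. Values per library (means for *Eef1akmt1*) are given for members called without the block, for the 2 smallest p-values of each factor group with at least 3 tested genes, for a fixed list of regulators, and for the other members called with the block, which were added after their values were seen. In pathway lists the 2 smallest p-values are named.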

Additional observations from a re-analysis of the deposited data

Results flagged for a closer look

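In 9 of the 126 combinations of member and group, 1 library lay far from its 3 companions by Dixon's criterion (the gap to the nearest of the others as a share of the group's range), where chance gives about 6.3, or 1 in 20. IOX5 replicate 4 was the high library of *Eef1d* (300.2 CPM, others 206 to 216), *Eif4a3* (243 CPM, others 199 to 203) and *Eif5a* (1560 CPM, others 1322 to 1353). DMSO replicate 2 was the high library of *Eif3b* (714 CPM), *Eif4g2* (2423 CPM), *Eif5a* (1706 CPM) and *Eif2ak1* (88.6 CPM). DMSO replicate 3 was high for *Eif2a* (144 CPM) and DMSO replicate 4 low for *Eif2ak3* (38.8 CPM). The causes were not tested.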

How the results depend on the processing

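The count of members called lower was 0 in edgeR without the block and rose to 12 with DESeq2, to 15 with the replicate block and to 8 at an adjusted p under 0.1. Besides these 15 members the block changed the call of *Eef2k* only. Leaving out 1 library gave 0 to 15, with 1 without IOX5 replicate 1 and 15 without IOX5 replicate 4. The count called higher was 1, or 2 with the replicate block, and 0 to 1 with 1 library left out. In an alternative chosen after seeing the data, the replicate block without number 1, 2, 3 or 4, 6, 9, 3 and 20 were lower and 2 higher each time. Of the pathway genes, 1 was lower and 0 higher, against 10 and 2 with DESeq2, 11 and 2 with the replicate block, and 0 to 4 lower with 1 library left out. RLE and upper-quartile scaling and both other filters kept these counts. The members' median log2 fold change ranged from -0.18 to -0.08. The sign of *Eif2ak4* turned to 0.0033 with DESeq2, 0.0032 with RLE, 0.010 with upper-quartile scaling and 0.0052 with at least 10 counts in every sample, and ranged from -0.072 to 0.075 with 1 library left out. *Eif4a2* ranged from -0.11 to 0.011 in those fits. The ratio difference of *Eif3j1* to *Eif3j2* turned to -0.079 with a prior of 5 counts and ranged from -0.20 to 0.20 with 1 library left out, and that of *Eif1a* to *Eif1ax* from -0.069 to 0.00078. With sign flips over the 4 pairs no ratio can go below an exact p of 0.125. Using the longest transcript moved 29 of 31 levels per length by more than 1 SD.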
